A study of Mus musculus with 6 samples.

Results

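The genes described here are myoglobin (Mb), 4 nuclear-encoded subunits of cytochrome c oxidase (Cox4i1, Cox5b, Cox6a2 and Cox8a), the mitochondrial transcription factor Tfam, and the mitochondrial enzymes Pdha1 and Mdh2. They are 8 of the 203 genes named on a directed array of 223 probes, and the platform annotation gave each of them 1 probe. Their signals were read on 6 arrays of total RNA from soleus, a slow postural muscle of the calf, taken from control C57Bl/6 mice. The titles of all 6 also carry the letters HUR wt, where wt is the usual short form of wild type and HUR is not explained by the labels. The labels name no treatment, age or sex and do not say whether each array came from a separate mouse, so the spread between arrays may be partly technical. All 6 arrays form 1 group, numbered controls 1 to 6, and no comparison between conditions was possible.

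Myoglobin is the oxygen-binding haem protein that stores oxygen in slow and oxidative muscle fibres and eases its movement to mitochondria. Cytochrome c oxidase, the last complex of the respiratory chain, passes electrons to that oxygen. Its catalytic core is encoded in mitochondrial DNA, and the nuclear-encoded subunits are made in the cytosol and imported. Cox6a2 is the heart and skeletal muscle form of subunit VIa, while Cox4i1, Cox5b and Cox8a are widely expressed. Pdha1, the E1 alpha subunit of pyruvate dehydrogenase, feeds carbon into the citric acid cycle, and Mdh2 is the malate dehydrogenase of that cycle. Tfam packages mitochondrial DNA and is a factor in its transcription.

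The sequences before the start sites of Mb, Cox5b and Cox8a are shown because the ratios among these 3 genes were the steadiest among the pairs of Mb with an oxidase subunit, and the Cox5b and Cox8a pair was the steadiest of all member pairs. Each is the 250 bases before an annotated start, from a table of RefSeq promoters on GRCm38.p6 in which 6 of the 8 genes were matched; Cox4i1 and Cox6a2 were not matched. Capitals mark matches, on either strand, to TGCGCA (the core of the NRF-1 site), CCGGAA (the core of the GABP site), AAGGTCA (the core of estrogen-related receptor sites) and CAGCTG (an E-box). Matches did not overlap each other in the windows shown.
Mb, chr15:77022788-77023037, minus strand: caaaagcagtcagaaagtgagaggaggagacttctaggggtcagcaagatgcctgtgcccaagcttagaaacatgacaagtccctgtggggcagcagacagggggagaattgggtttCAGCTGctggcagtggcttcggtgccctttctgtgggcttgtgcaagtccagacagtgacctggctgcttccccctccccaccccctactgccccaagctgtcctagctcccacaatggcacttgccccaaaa
Cox5b, chr1:36691237-36691486, plus strand: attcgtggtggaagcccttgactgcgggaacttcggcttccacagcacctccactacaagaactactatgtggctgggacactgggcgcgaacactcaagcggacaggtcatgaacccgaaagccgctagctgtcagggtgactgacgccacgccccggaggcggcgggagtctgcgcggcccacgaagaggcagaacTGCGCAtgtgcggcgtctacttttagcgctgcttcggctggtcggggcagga
Cox8a, chr19:7217617-7217866, minus strand: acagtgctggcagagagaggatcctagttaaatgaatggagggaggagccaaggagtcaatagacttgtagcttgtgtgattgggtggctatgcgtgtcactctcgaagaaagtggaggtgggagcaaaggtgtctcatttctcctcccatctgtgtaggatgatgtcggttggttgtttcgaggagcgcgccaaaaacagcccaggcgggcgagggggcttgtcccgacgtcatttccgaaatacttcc
The Mb window, the middle of 3 annotated by position, held 1 CAGCTG, from -133 to -128 relative to the start. Over all 32851 windows of this length in the table, 13.0% held that pattern. The Cox5b window held 1 TGCGCA, from -52 to -47, a pattern found in 6.43% of all windows. The Cox8a window held none of the 4 patterns. CCGGAA and AAGGTCA, found in 12.0% and 4.08% of all windows, had no match in these 3 windows.

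Intensities were on a linear scale after what looks like background subtraction, and array sums ran from 31.0 to 125.2. Each value was therefore taken to log2 and set against the median of its array over the 152 genes and unnamed probes that were above 0 on all 6 arrays, and this difference is called a level. The noise bound of an array is the size of its most negative intensity, between 0.0018 and 0.0087. Control 2 had the fewest probes above its bound, 109, against 143 to 166 on the other arrays. Of the 8 genes, 7 lay well above the bound on every array, with Mb at 481.5 to 1044 times it, Cox8a at 27.3 to 80.5 times and Mdh2 at 27.9 to 59.3 times. The bound was exceeded on all 6 arrays by 105 of the 152, so passing it does not mark a tissue. The adipocyte marker Fabp4 and the endothelial marker Pecam1 passed it too. Muscle markers were read against the same bound. The slow myosin Myh7, the filament gene Des and the giant sarcomere protein Ttn, the 3 muscle fibre markers on the array of 9 listed, were above the bound on all 6 arrays. So were the fast myosins Myh2, Myh1 and Myh4, all 3 of the fast fibre list. Blood and smooth muscle markers had no probe among those named. Fewer cells of a type and less RNA per cell cannot be told apart in whole muscle.

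Mb had intensities of 1.70, 2.99, 2.58, 7.23, 1.84 and 1.88 on controls 1 to 6, which corresponded to levels of 6.72, 7.71, 6.74, 6.93, 6.49 and 6.87. Control 2 stood above the other 5, which lay within 0.44 of each other on the log2 scale. The mean level was 6.91 ± 0.42 (SD, n = 6) and the highest array was 2.33-fold above the lowest. Without control 2 the SD was 0.17.

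Cox4i1 carries the subunit IV that binds nucleotides and regulates the oxidase. Its levels were 4.56, 4.82, 4.43, 4.45, 4.05 and 4.50, a mean of 4.47 ± 0.25 (SD, n = 6) and a range of 1.71-fold, the narrowest of the 8 genes. Cox5b, a zinc-binding subunit on the matrix side, had levels of 5.08, 5.65, 4.84, 5.11, 4.53 and 5.24 (SD 0.38). Cox8a, a small membrane-spanning subunit, had 2.87, 3.57, 2.85, 3.25, 2.67 and 3.17 (SD 0.33). With arrays centred on their median, these 3 subunits shared with Mb the highest level in control 2 and the lowest in control 5.

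Cox6a2 did not share the high level in control 2. Its levels were 7.27, 6.87, 6.76, 7.05, 6.37 and 7.18, a mean of 6.92 ± 0.33 (SD, n = 6), with the highest value in control 1 and the lowest in control 5. Control 2 lay below the median of 6.96 for this gene.

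Of the 2 enzyme genes, Mdh2 had levels of 3.05, 3.60, 2.67, 2.86, 2.16 and 2.73 (mean 2.85 ± 0.47, SD, n = 6). It too was highest in control 2 and lowest in control 5. Pdha1 had levels of 4.34, 4.16, 3.80, 4.00, 2.95 and 3.53 (mean 3.80 ± 0.50, SD, n = 6), highest in control 1 and lowest in control 5. The array also carried Pdha2, the testis form of the same enzyme subunit, which did not exceed the noise bound on any of the 6 arrays.

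Tfam was above the noise bound on 2 arrays, controls 5 and 6, at no more than 1.57 times the bound. Its intensities were 0.0006, 0.0025, 0.0030, 0.0063, 0.0036 and 0.0027, so its levels of -4.75 to -2.51 rest in large part on background. The SD of 0.86 fell to 0.33 without control 1, the lowest array.

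**Figure D1:**
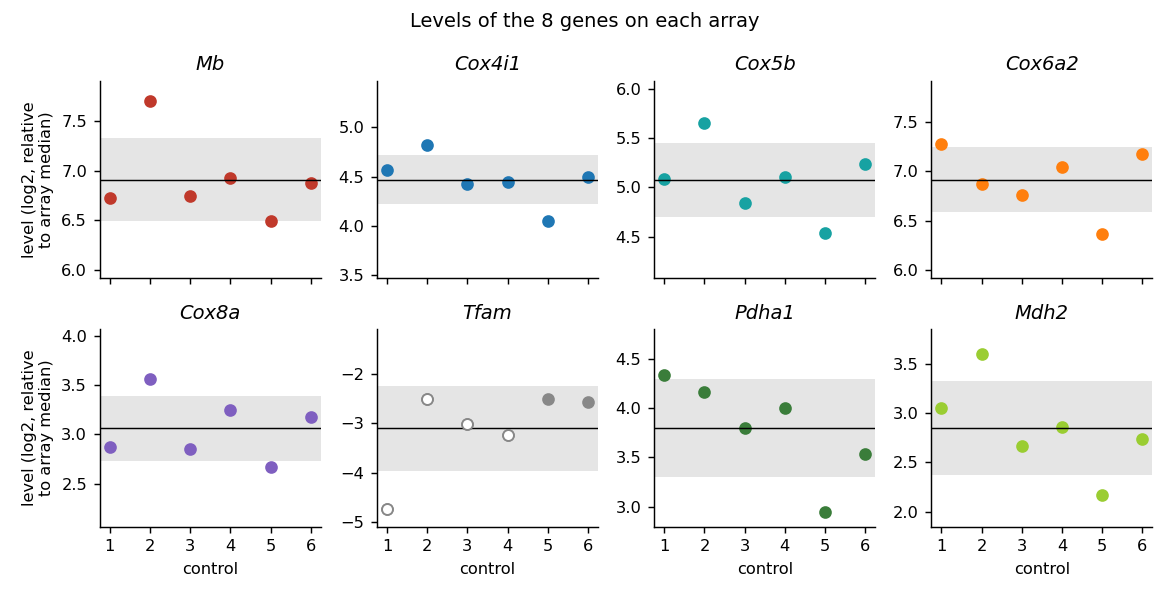
Level of each gene (y axis, log2 intensity relative to the array median) on controls 1 to 6 (x axis), with the mean as a line and 1 SD either side as a grey band, n = 6; open points lie below the noise bound of their array, and the y axis of Tfam spans a range wider than the others. Mb, Cox4i1, Cox5b, Cox8a and Mdh2 are highest in control 2, Cox6a2 and Pdha1 in control 1, and Tfam is above the bound in controls 5 and 6 alone.

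Across the 8 genes, 7 had their lowest level in control 5 and 5 their highest in control 2. Over all 152 genes and unnamed probes, 58 had their lowest value in control 5 and 41 their highest in control 2. Other bright genes shared this pattern. Among the 31 other genes in the brightest 25%, 21 reached their minimum in control 5 and 15 their maximum in control 2, and their median level was 3.63, 4.08, 3.43, 3.53, 3.25 and 3.57 on controls 1 to 6. The highest and lowest arrays named here belong to centring on the array median. With arrays centred on the 31 other bright genes, the SDs of Mb, Cox4i1, Cox5b and Cox8a were 0.18, 0.095, 0.14 and 0.16. Those of Cox6a2, Tfam, Pdha1 and Mdh2 were 0.33, 0.90, 0.37 and 0.21. The part of the brightness shared with other bright genes in the levels of the 8 genes was not tested. Markers of other cell types also differed between these arrays. The adipocyte marker Fabp4, the 1 of 3 listed that was measured, had levels of 2.53, 3.39, 1.87, 2.51, 1.59 and 1.69, highest in control 2 and lowest in control 5, as Mb was. The endothelial marker Pecam1 had 0.96, 2.24, 2.05, 1.14, 2.94 and 2.10, highest in control 5, while the other 3 endothelial markers Kdr, Cdh5 and Tek were highest in control 2, control 4 and control 1. Of the fibroblast markers, Pdgfra, above the noise bound on 5 arrays, and Fn1 were both highest in control 1. Of the myogenic factors listed for satellite cells, Myog was highest in control 2 and Myod1, above the noise bound on 4 arrays, in control 5. Myf5, from the same list, was above the bound on 0 arrays. The part of other cell types in the levels of the 8 genes was not tested.

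**Figure D2:**
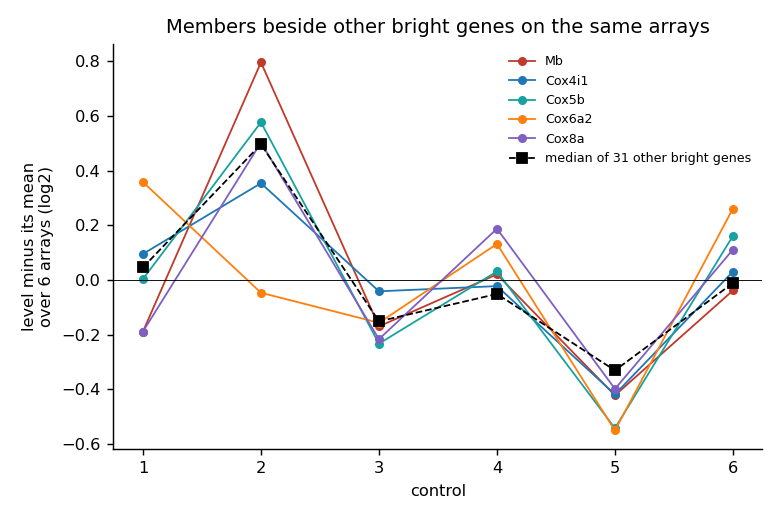
Level of Mb and the 4 oxidase subunits minus each gene's own mean over the 6 arrays (y axis, log2) on controls 1 to 6 (x axis), beside the median of the 31 other genes of the brightest 25% (black squares); lines join the values of 1 series and imply no order. Mb, Cox4i1, Cox5b and Cox8a lie high with the bright genes in control 2, where Cox6a2 lies near its own mean.

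Whether any gene varied more than genes of like intensity was tested with limma's F test against an intensity-trended prior variance, with Benjamini-Hochberg adjustment over all 152. The test called 1.32% of the 152 and 0 of the 8 genes described here, whose adjusted p ran from 0.921 for Mb, Pdha1 and Mdh2 to 0.988 for Cox4i1. At an unadjusted p under 0.05 in limma, 9 of the 152 passed. The same limma test for smaller spread than the prior called 0 of 152 (0%), with an adjusted p of 0.874 for Cox4i1, whose SD was matched or undercut by 8.55% of the 152.

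A ratio of 2 genes on the same array does not depend on the brightness of the whole array, so ratios between subunits could be compared between arrays. The size of a ratio carries the affinities of both probes and was not read. Only its change between arrays was. The ratio of Cox5b to Cox8a was 4.61, 4.25, 3.99, 3.62, 3.65 and 4.18 on controls 1 to 6, an SD of 0.13 on the log2 scale and a range of 1.27-fold. The ratio of Cox4i1 to Cox5b was 0.699, 0.562, 0.749, 0.632, 0.715 and 0.599, with an SD of 0.16 and a range of 1.33-fold. That of Cox4i1 to Cox8a was 3.22, 2.39, 2.99, 2.29, 2.61 and 2.51, with an SD of 0.19 and a range of 1.41-fold. The ratios among these 3 widely expressed subunits thus stayed within 1.41-fold on all 6 arrays.

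The ratios to Cox6a2 moved further. Cox4i1 over Cox6a2 was 0.153, 0.242, 0.198, 0.165, 0.201 and 0.156, with an SD of 0.26 and a range of 1.58-fold. Cox5b over Cox6a2 was 0.218, 0.430, 0.265, 0.261, 0.281 and 0.261, with an SD of 0.33 and a range of 1.97-fold. Cox6a2 over Cox8a was 21.1, 9.88, 15.1, 13.9, 13.0 and 16.0, with an SD of 0.36 and a range of 2.14-fold. In each of these 3 ratios control 2 had the lowest Cox6a2 relative to the other subunit and control 1 the highest. Without control 2 the ranges were 1.31-fold, 1.29-fold and 1.62-fold. Those of Cox4i1 over Cox5b, Cox5b over Cox8a and Cox4i1 over Cox8a were then 1.25-fold, 1.27-fold and 1.41-fold. Without that array, the ratios of Cox4i1 and Cox5b to Cox6a2 thus moved no further than that of Cox4i1 to Cox8a. The difference in spread between the ratios with and without Cox6a2 was not tested.

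Over the 6 pairs of subunits the median SD of the log2 ratio was 0.23. Over all 11476 pairs of the 152 it was 0.80, over the 5460 pairs of the 105 above the noise bound on every array 0.59, and over pairs of the 31 other bright genes 0.58. A range under 2-fold was found for 5 of the 6 subunit pairs, against 11.8% of all pairs and 20.5% of the pairs above the noise bound. Cox5b over Cox8a had an SD that 0.174% of all pairs, and 0.330% of the pairs above the noise bound, matched or undercut. For Cox6a2 over Cox8a these shares were 10.6% and 18.7%. These shares describe the array, since pairs that share a gene are not independent.

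**Figure D3:**
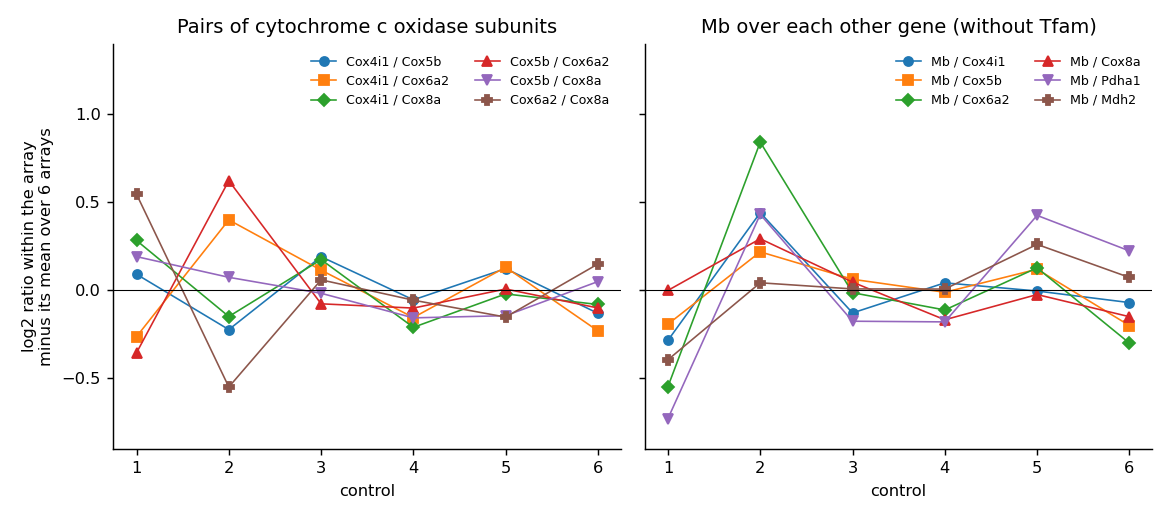
Log2 ratio of 2 genes on the same array minus its mean over the 6 arrays (y axis) on controls 1 to 6 (x axis), for the 6 pairs of cytochrome c oxidase subunits (left) and for Mb over the other genes except Tfam (right); lines join the values of 1 pair and imply no order. Among the subunit pairs, those with Cox6a2 depart most from 0, in controls 1 and 2, and among the ratios of Mb the largest departures are over Cox6a2 in control 2 and over Pdha1 in control 1.

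Ratios of Mb to the subunits were read in the same way. Mb over Cox8a was 14.4, 17.6, 14.9, 12.8, 14.2 and 13.0 on controls 1 to 6, a range of 1.38-fold. Mb over Cox5b was 3.12, 4.15, 3.72, 3.54, 3.87 and 3.10, a range of 1.34-fold. Mb over Cox4i1 had a range of 1.65-fold, with control 2 highest at 7.38 and the other 5 arrays between 4.46 and 5.60. Mb over Cox6a2 was 0.682, 1.78, 0.986, 0.922, 1.09 and 0.809, a range of 2.62-fold, or 1.60-fold without control 2. The SDs of these log2 ratios were 0.17, 0.17, 0.24 and 0.47.

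Over the 6 arrays, the levels of Mb and Cox8a had Pearson's r = 0.929 (exact two-sided permutation p = 0.0028, adjusted p = 0.196 over all 11476 pairs) and Spearman's rho = 0.943 (exact p = 0.0167, adjusted p = 0.254). When controls 2 and 5 were left out, the arrays farthest from the median of Mb, r was 0.988. The Mb and Cox5b pair gave r = 0.915 (exact permutation p = 0.0083, adjusted p = 0.202) with Spearman's rho = 0.886 (exact p = 0.033, adjusted p = 0.288), with r = 0.597 without those arrays. The Mb and Cox4i1 pair gave r = 0.851 (exact permutation p = 0.058, adjusted p = 0.308) with Spearman's rho = 0.600 (exact p = 0.242, adjusted p = 0.585), with r = -0.36 without those arrays, so the relation rested on them. The Mb and Cox6a2 pair gave r = 0.212 (exact permutation p = 0.685, adjusted p = 0.848) with Spearman's rho = 0.200 (exact p = 0.714, adjusted p = 0.894). Here r was 0.760 without control 2, -0.38 without control 5 and 0.112 without both.

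None of the 28 pairs of members passed after adjustment, and of all 11476 pairs the test called 0%. Without adjustment, 10 of the 28 had an exact permutation p under 0.05, as did 16.7% of all pairs. The smallest p that 6 arrays allow in the exact permutation test is 0.00139. A call at that p would need 319 pairs to reach it at this number of pairs, and 83 did. A call at a larger p would need more pairs.

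**Figure D4:**
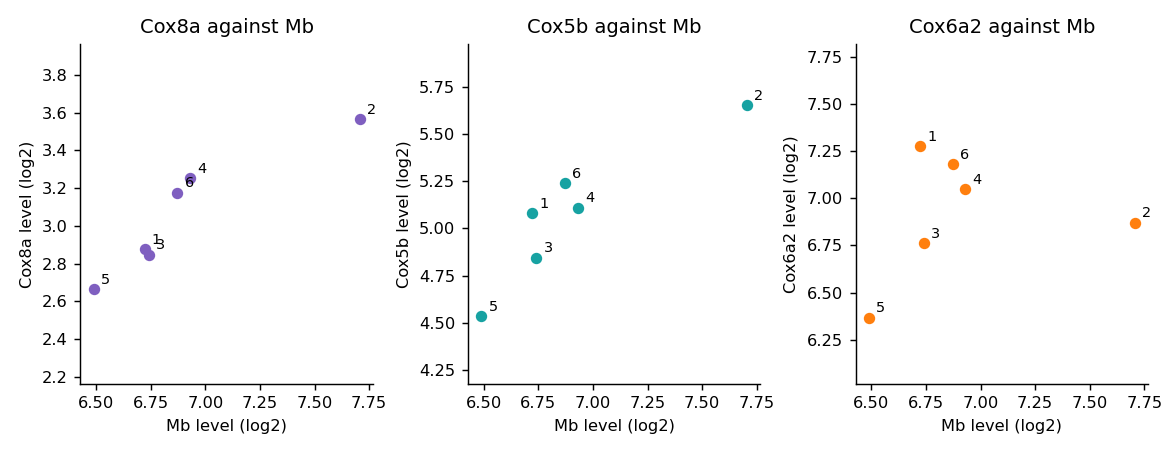
Level of Cox8a, Cox5b and Cox6a2 (y axes, log2 relative to the array median) against the level of Mb (x axes, same scale), 1 point per array, numbered by control. Cox8a and Cox5b are higher where Mb is higher, with r of 0.929 and 0.915, while Cox6a2 at the highest Mb, in control 2, lies below 3 of the other arrays (r = 0.212).

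Mdh2 and Pdha1 were set against Mb and the oxidase subunits in turn. Mdh2 had r = 0.973 with Cox4i1 (exact permutation p = 0.011, adjusted p = 0.205; rho = 0.943, exact p = 0.0167, adjusted p = 0.254), and r = 0.784 without controls 2 and 5. The sign of this r depended on the scaling, with 0.506 after cyclic loess, -0.029 when arrays were centred on the 31 other bright genes and -0.36 after quantile normalization. With Cox5b it had r = 0.931 (exact permutation p = 0.024, adjusted p = 0.241; rho = 0.771, exact p = 0.103, adjusted p = 0.412), which was 0.287 without those arrays and -0.059 after quantile normalization. With Mb it had r = 0.891 (exact permutation p = 0.026, adjusted p = 0.250; rho = 0.657, exact p = 0.175, adjusted p = 0.509), and -0.21 without them, so that relation rested on those 2 arrays. Mb over Mdh2 was 12.7, 17.2, 16.8, 16.8, 20.1 and 17.6, lowest in control 1 and within 1.19-fold on the other 5.

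Ratios of Pdha1 to the 4 oxidase subunits had ranges of 1.83-fold to 2.26-fold. Cox4i1 over Pdha1 was 1.17, 1.58, 1.54, 1.37, 2.14 and 1.95 on controls 1 to 6, so Pdha1 was high relative to Cox4i1 in control 1 and low in controls 5 and 6. Mb over Pdha1 was 5.22, 11.7, 7.66, 7.64, 11.6 and 10.1, a range of 2.23-fold. With Mb, Pdha1 had r = 0.533 (exact permutation p = 0.251, adjusted p = 0.538; rho = 0.371, exact p = 0.497, adjusted p = 0.783), which became -0.42 without controls 2 and 5. Pdha1 over Mdh2 was 2.44, 1.48, 2.20, 2.20, 1.73 and 1.74, a range of 1.65-fold, with r = 0.841 (exact permutation p = 0.044, adjusted p = 0.284; rho = 0.886, exact p = 0.033, adjusted p = 0.288) and 0.772 without controls 1 and 5.

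The values of Tfam are too near the noise for its ratios to be read, and its 7 pairs with the other genes had r from -0.62 to 0.271. The smallest adjusted p of these 7 in the exact permutation test was 0.490.

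Correlations between levels depended on the scaling, while a within-array ratio is the same under any centring. When arrays were centred on the 31 other bright genes in place of all 152, Mb and Cox8a had r = 0.530, Mb and Cox5b 0.453, and Mb and Cox4i1 -0.56. After cyclic loess normalization, which removes differences that depend on intensity, the 3 values were 0.912, 0.786 and 0.891, and Mb with Cox6a2 had -0.14. Cyclic loess and quantile normalization act by intensity and can change a ratio. The ratio SDs of Cox5b to Cox8a and of Mb to Cox8a after cyclic loess were 0.13 and 0.12, and after quantile normalization 0.11 and 0.21. In the same order, the SD of Mb over Cox4i1 went from 0.24 to 0.22 and 0.19. That of Mb over Mdh2 went from 0.21 to 0.33 and 0.46, and that of Cox4i1 over Mdh2 from 0.24 to 0.27 and 0.42. Mdh2 with Mb had r = 0.377 after cyclic loess and -0.099 after quantile normalization.

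Of 43 other genes listed for mitochondrial and fatty acid metabolism, 10 had a probe, 9 were measured on all 6 arrays and 8 lay above the noise bound on all 6. None of the 9 passed the limma test for excess spread. Within-array ratios to Mb stayed under 2-fold for 5 of these 8, against 22.4% of the 98 genes and unnamed probes above the bound outside the 8 described here, and ratios to Cox4i1 for 5 of 8, against 38.8%. Acadm, the medium-chain acyl-CoA dehydrogenase of beta-oxidation, had an SD of 0.20 for its log2 ratio to Mb and r = 0.939 with it (exact permutation p = 0.018, adjusted p = 0.224; rho = 0.829, exact p = 0.058, adjusted p = 0.332), but r was -0.25 without controls 2 and 5. Acadl, the long-chain enzyme of the same pathway, had SDs of 0.42 to Mb and 0.40 to Cox4i1. Cpt1b, the carnitine palmitoyltransferase of muscle mitochondria, had SDs of 0.25 to Mb and 0.14 to Cox4i1. The uncoupling protein Ucp3 had 0.35 and 0.29, and the lipase Lpl 0.35 and 0.20. Among carriers of fatty acids, Cd36 and Fabp3 had 0.35 and 0.43 to Mb, and 0.55 and 0.54 to Cox4i1. Ppara, a nuclear receptor for fatty acids, had its lowest level, -0.28, in control 2, where Mb was highest, and an SD of 0.57 to Mb. The adipogenic receptor Pparg exceeded the noise bound on 4 arrays and the hormone-sensitive lipase Lipe on 2.

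Of 10 genes listed for oxygen sensing and glycolysis, 8 were measured and 5 were above the noise bound on all arrays. Ratios to Mb stayed under 2-fold for 1 of these 5, the glycolytic kinase Pgk1, against the 22.4% given above, and ratios to Cox4i1 for 4 of 5, against 38.8%. To Cox4i1, Vegfa and Ldhb were near the limit, each with a range of 1.93-fold, while Slc2a1 and Pgk1 had 1.45-fold and 1.36-fold. Ldhb, the heart-type lactate dehydrogenase subunit, had r = 0.916 with Cox4i1 (exact permutation p = 0.0139, adjusted p = 0.214; rho = 0.886, exact p = 0.033, adjusted p = 0.288), and 0.839 without controls 2 and 5. The hypoxia factor Hif1a was above the noise bound on 3 arrays.

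Among all 98, the genes with the steadiest ratio to Mb were the lipoprotein receptor Vldlr, Acadm and the glucose transporter Slc2a2, each with a log2 SD of 0.20. By Pearson's r over the 6 arrays they were Acadm (0.939), Cpt1b (0.929) and Slc2a2 (0.898). Without controls 2 and 5 these r were -0.25, 0.333 and 0.845. The steadiest ratios to Cox4i1 were those of the fast myosin Myh4 (SD 0.13), Cpt1b (0.14) and Vldlr (0.16), and the highest r were with Acadm (0.926), Ldhb (0.916) and Myh7 (0.910). Without controls 2 and 5 these r were -0.81, 0.839 and 0.403. The steadiest ratios to Cox6a2, listed by the same rule after its values were seen, were those of the glucose transporter Slc2a1 (SD 0.19), the ribosomal protein gene Rps29 (0.20) and the glycolytic enzyme Gapdh (0.20).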

How the data were processed

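The authors deposited 1 intensity per probe and array, on a linear scale, for 223 probes and 6 arrays. How the arrays were scanned, corrected and scaled is not given in the sources read here. Per the labels, 3 µg of total RNA from cryosections was used for each array. The platform annotation supplied gene names. Probes above 0 on all arrays (153) were kept, brought to log2, averaged by gene (152 left) and centred on each array's median. Arrays give no counts, and their number limits the precision. Spread was tested with limma 3.58.1 in R 4.3.3 (prior degrees of freedom 6.12) and pairs with exact permutation over 720 pairings, with a threshold of 0.05. Both were run on simulated data with large seeded effects, which says little about smaller effects. The members and lists were chosen with earlier results of these data known. The text names the members, the listed pathway genes, and the 3 genes nearest to Mb and to Cox4i1 by ratio SD and by r. Alternatives were other centrings, quantile and cyclic loess normalization, filters on dim genes, a floor at the noise bound, each replicate left out, other priors, Spearman's rho and a 1.5-fold threshold. Of the marker lists, adipocytes, fibroblasts, endothelium and satellite cells had 1, 2, 4 and 2 measured genes.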

Additional observations from a re-analysis of the deposited data

Results flagged for a closer look

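Of 36 series examined over the 6 arrays (8 levels and 28 log2 ratios), 4 held an array far from the others by Dixon's criterion, which chance exceeds in about 1 of 20. The 28 ratios are formed from the same 8 levels, so the 36 series are not independent. The criterion was not applied to the other genes on the array or to their ratios. Whether these 8 genes are flagged more often than others therefore cannot be told. The level of Mb in control 2 was 7.71, against 6.49 to 6.93 on the other arrays. These levels belong to centring on the array median, where the SD of Mb was 0.42. That SD was 0.18 with centring on the other bright genes, 0.25 after quantile normalization and 0.78 with no centring. Dixon's criterion was not applied under those scalings. The level of Tfam in control 1 was -4.75, at 0.18 times the noise bound. The log2 ratio of Cox5b over Cox6a2 in control 2 was -1.22, the highest of the 6 arrays, and that of Cox6a2 over Mdh2 in control 2 was 3.27, the lowest. Control 2 was also the array with the fewest probes above its noise bound, 109, while the intensity of Cox6a2 there was 269.8 times the bound. The part of array quality in these values was not tested.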

How the results depend on the processing

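No paired analysis was possible because all 6 arrays form 1 group. The number of members with excess spread in limma and the number of member pairs correlated stayed at 0 under every alternative run. Over all pairs of genes the test also called 0 in each setting, so the count for members says little about them. Leaving out an array leaves fewer pairings and makes a call harder still. The median SD of the subunit ratios was 0.194 with quantile normalization, 0.258 with cyclic loess, and ran from 0.167 to 0.248 with a replicate left out. The count of subunit pairs under 2-fold was 5. With a replicate left out it ran from 5 to 6, but leaving out an array cannot widen a range, so the count could not fall. With a threshold of 1.5-fold it was 3, against 244 of all 11476 pairs and 219 of the 5460 pairs above the noise bound. Several r changed sign, and none of them had passed the test. For Mb and Cox6a2, r was -0.11 with centring on the 75th percentile, -0.34 after quantile normalization, -0.14 after cyclic loess and -0.71 with centring on the brightest 25%, which was chosen after seeing the data. For Mb and Pdha1 it was -0.54 after quantile normalization, -0.16 after cyclic loess and -0.26 with the brightest 25%. Quantile normalization also gave -0.099 for Mb and Mdh2, -0.36 for Cox4i1 and Mdh2, -0.059 for Cox5b and Mdh2, -0.20 for Cox4i1 and Cox6a2, -0.37 for Cox5b and Cox6a2, and -0.071 for Cox6a2 and Cox8a. The brightest 25% gave -0.56 for Mb and Cox4i1, -0.029 for Cox4i1 and Mdh2, and -0.021 for Cox4i1 and Cox8a. With a replicate left out, r ran from -0.38 to 0.760 for Mb and Cox6a2, from -0.12 to 0.943 for Cox4i1 and Cox6a2, from -0.0084 to 0.949 for Cox5b and Cox6a2, and from -0.19 to 0.680 for Cox6a2 and Cox8a, each lowest without replicate 5. The cause was not tested. Signal over background limits Tfam.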

Other observations

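Cyct, the testis form of cytochrome c, was above the noise bound on 4 arrays, controls 3 to 6, with intensities of 0.0084, 0.0349, 0.0107 and 0.0081, and was at or below 0.0008 on controls 1 and 2. Slc2a2, known as the glucose transporter of liver and pancreatic islets, ordered the 6 arrays exactly as Mb did, with Spearman's rho = 1 (exact permutation p = 0.0028, adjusted p = 0.199) and r = 0.898 (exact permutation p = 0.00139, the smallest the design can give, adjusted p = 0.192). Cyct was chosen after its values were seen.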
